A study of Homo sapiens with 4 samples.

Results

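Hematopoietic growth factor receptors comprise the receptor tyrosine kinases KIT, FLT3 and CSF1R and the cytokine receptor chains CSF2RA, CSF2RB, IL3RA, CSF3R and EPOR. The 8 genes were followed by every array probe that carries their name. Of 12 such probes 9, for 7 genes, entered the analysis because their quality weight exceeded 0 on each of the 4 arrays, as did 26219 probes in all. KIT was the gene without an analysed probe. Expression was profiled in THP1 cells, an acute monocytic leukemia line that carries the MLL-AF9 fusion gene. In the knockdown group the fusion transcript was targeted at its breakpoint with siRNA-A (siRNA3 in the labels) or siRNA-B (siRNA4), and the control group received a non-targeting siRNA, control siRNA-1 or control siRNA-2. The sample titles carry the numbers only, and siRNA3 was taken as siRNA-A and siRNA4 as siRNA-B. Both groups carried the fusion, were treated with siRNA on days 0, 3 and 6, were kept in low-serum medium from day 6 and were harvested on day 8. Each array held a pool of 5 experiments, and the comparison rests on 2 knockdown and 2 control arrays of a single cell line. The knockdown arrays lay at positions 1 and 2 and the control arrays at positions 3 and 4 of 1 slide, so that treatment and position cannot be told apart. The comparison asks whether knockdown of MLL-AF9 changed the receptors through which myeloid cells read growth factors. The knockdown was partial, since the study still measured part of the fusion transcript on day 8.

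KIT, FLT3 and CSF1R bind stem cell factor, FLT3 ligand and macrophage colony-stimulating factor, respectively, and pair upon ligand binding, which switches on the kinase inside the cell. CSF2RA and IL3RA are the chains that recognize granulocyte-macrophage colony-stimulating factor (GM-CSF) and interleukin-3, and both signal through the shared beta chain CSF2RB. CSF3R and EPOR, the receptors for granulocyte colony-stimulating factor and erythropoietin, work as pairs of identical chains. The cytokine receptors have no kinase of their own and rely on Janus kinases (JAK), which activate STAT transcription factors. In normal blood formation KIT and FLT3 mark stem and progenitor cells, CSF1R marks monocytes and macrophages, CSF3R neutrophils and EPOR erythroid precursors.

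Array probes are 60 bases long, and the sequence decides which transcript part is read. The sequences below belong to both KIT probes with an open reading frame, which gave no signal well above background, and to the CSF2RA and CSF2RB probes whose partner probe gave another value. They are printed in sense orientation without capitals, since no base is singled out.
KIT A_33_P3303245: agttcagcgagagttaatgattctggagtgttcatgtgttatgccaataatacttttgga
KIT A_33_P3407034: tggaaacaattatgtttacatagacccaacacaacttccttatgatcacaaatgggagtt
CSF2RA A_23_P501985: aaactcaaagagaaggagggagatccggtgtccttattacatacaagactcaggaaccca
CSF2RB A_33_P3341442: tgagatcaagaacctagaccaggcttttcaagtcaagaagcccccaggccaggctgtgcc

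All positions refer to hg19 as given in the scanner tables. The KIT probes start at base 918 of a KIT transcript and at bases 1778 and 4805 of another KIT transcript. They lie on chromosome 4 at 55569965 to 55570024, 55593626 to 55593685 and 55606511 to 55606570. The CSF2RA probe A_23_P501985 spans 1508 bases, from 1407773 to 1409280 on chromosome X, and thus crosses a splice junction, whereas A_33_P3232688 lies further downstream at 1429133 to 1429192. Both CSF2RB probes lie on chromosome 22, A_33_P3341442 at 37334388 to 37334447 and A_23_P120899 at 37334598 to 37334657. The last KIT probe (A_23_P110253), the CSF1R probe and the CSF2RA probe A_33_P3232688 contain stop codons in every sense reading frame and so cannot lie wholly within coding sequence. The remaining probes each kept at least 1 open frame, which does not place them inside or outside the coding part.

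Across all 4 arrays the median log2 intensity of the analysed spots ranged from 8.56 to 8.65, and 70.0% to 74.3% of the 43118 spots other than control spots, those of weight 0 included, were well above background by the scanner software. MLLT3, the gene of AF9, whose probes read wild-type and fusion transcripts where both contain the probed part, gave a log2 intensity of 6.82 with siRNA-A and 6.87 with siRNA-B against 7.59 and 7.61 with control siRNA-1 and -2 on the probe A_23_P216693 (log2 fold change -0.76, limma adjusted p = 0.0639). Its probe A_24_P192627 gave -0.63 (limma adjusted p = 0.182). Both knockdown arrays were below the controls on either probe. Of 14 monocytic markers 12 had an analysed probe, and all 12 were well above background on every array. Of these, 1 higher (CD14, log2 fold change 1.05) and 1 lower (ELANE, -0.47) passed the threshold used below, which 1.35% of all gene names did by their brightest probe. Of the 12 markers 4 had an unadjusted p under 0.05 in limma, beside 8.2% of all gene names: these were the called genes, CD36 (0.44) and CTSG (-0.43). The list mixes markers of mature monocytes with granule genes of immature myeloid cells. It was chosen with earlier results of these data known. The study had reported higher CD14 and lower ELANE and CTSG from the same arrays, so the counts are a description. The granule genes ELANE, CTSG, MPO (-0.22) and AZU1 (-0.028) make up part of the 8 markers below 0, and the median of the list was -0.083. It was -0.205 when siRNA-B was left out, -0.0097 when siRNA-A was, and 0.0051 with background correction and quantile normalization. No gene of the erythroid, megakaryocytic, lymphoid or mast cell and basophil marker lists was called among 7, 5, 7 and 3 genes tested, and 2, 1, 0 and 0 of them had an unadjusted p under 0.05 in limma. Fold changes above 0 were found in 6 of 7, 3 of 5, 3 of 7 and 2 of 3 of these genes. The smallest p of each list belonged to HBB (log2 fold change 0.39), GP1BA (0.29), CD3G (0.23) and MS4A2 (0.24), and HBB was well above background on 1 array. The other MS4A2 probe gave 0.013. The part of these markers in the receptor values was not tested.

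None of the receptors passed the threshold for differential expression after MLL-AF9 knockdown, which was an unadjusted p under 0.005 in limma, a linear model that shares information on variance between probes. Of all probes 1.32% passed it, 0.584% with a higher and 0.732% with a lower value after knockdown, and 0 of 9 receptor probes did. An unadjusted p under 0.05 was reached by 2 receptor probes, one of CSF2RA and one of CSF2RB, beside 8.06% of all probes, and no receptor probe had an adjusted p under 0.05, beside 0.118% of all probes. On the log2 scale 8 of 9 receptor probes had a fold change above 0, beside 44.5% of all probes, with a median of 0.18 beside -0.018 over all probes. In 5 receptor probes of 4 genes, FLT3, CSF1R, CSF2RA and CSF2RB, both knockdown arrays lay above the control arrays; among all probes this share was 15.2%. In no receptor probe were both knockdown arrays the lowest, which was the case in 21.4% of all probes. The 9 probes share arrays and in part genes, and their counts are given as a description. In RNA of whole cultures, a change in the share of cells with a transcript cannot be told apart from a change in its amount per cell. For single probes the smallest two-sided exact permutation p that 2 against 2 arrays allow is 0.333.

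**Figure D1:**
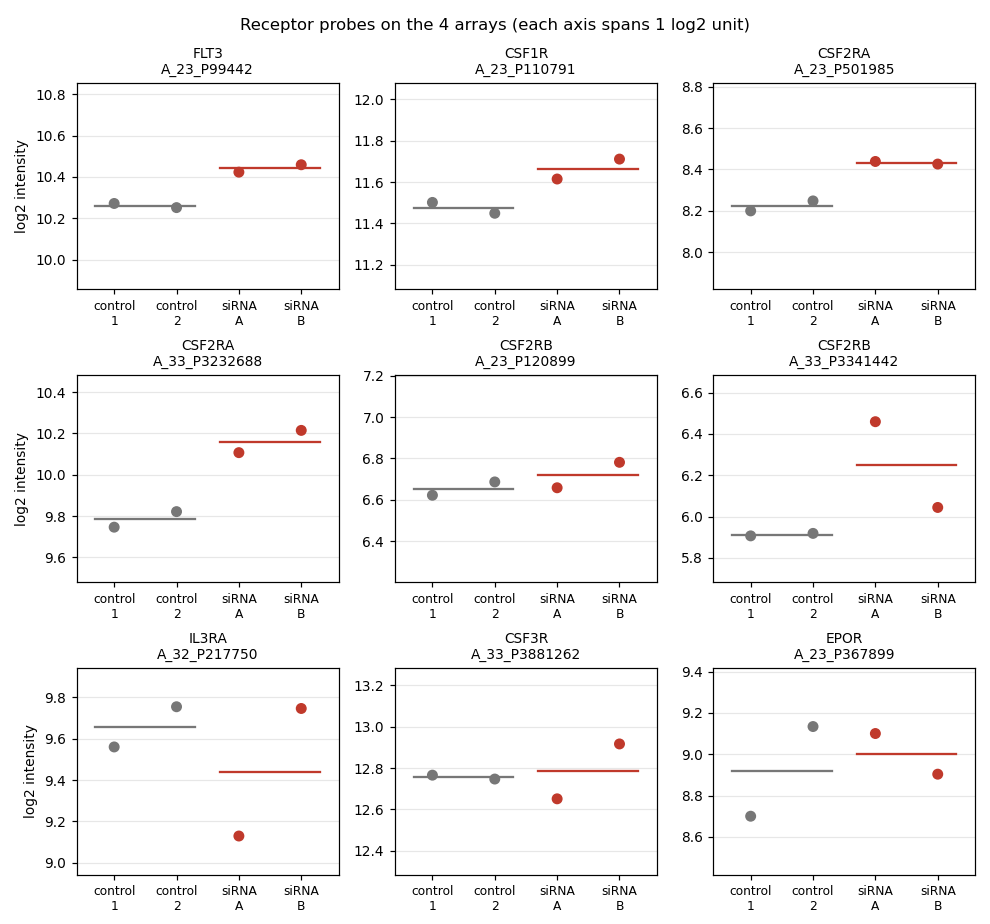
Log2 intensity of the 9 receptor probes (vertical axis, 1 log2 unit in each panel) on the control siRNA-1, control siRNA-2, siRNA-A and siRNA-B arrays (horizontal axis); points are arrays and lines are group means of 2 arrays. The groups are apart in FLT3, CSF1R, both CSF2RA probes and CSF2RB A_33_P3341442, and the knockdown arrays differ most from each other in IL3RA.

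KIT, the receptor for stem cell factor, gave no signal well above background in THP1 cells under any treatment. Its 3 probes occupy 12 spots, of which 10 repeat the probe A_23_P110253, and 0 of 48 spot measurements over the 4 arrays were well above background. The deposited intensity of the 12 spots ran from 25.5 to 41.0 with siRNA-B, with a median of 32.8, and from 28.0 to 38.5 with siRNA-A, with a median of 32.5. In the control arrays it ran from 28.0 to 36.0, with a median of 31.0, and from 28.0 to 38.5, with a median of 31.5. The intensities of the 4 arrays overlapped, and no fold change is given, since both groups were not well above background.

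FLT3, the receptor for FLT3 ligand, was measured by 1 probe on chromosome 13 at 28577993 to 28578051. Its log2 intensity was 10.42 with siRNA-A, 10.46 with siRNA-B, 10.27 with control siRNA-1 and 10.25 with control siRNA-2. Both knockdown arrays were higher than both control arrays, and the arrays within a group lay close together. The mean was 10.44 ± 0.025 (SD, n = 2) in the knockdown arrays and 10.26 ± 0.014 (SD, n = 2) in the control arrays, and the log2 fold change was 0.18 ± 0.11 (SE, limma adjusted p = 0.749). The 95% interval of the change reached from -0.066 to 0.43. In limma the standard error also draws on the spread of all other probes and is therefore wider than that of these 4 values alone.

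CSF1R, the receptor for macrophage colony-stimulating factor, was measured on chromosome 5 at 149432861 to 149432920 by 1 probe on 10 identical spots. The mean log2 intensity of the spots was 11.62 with siRNA-A and 11.71 with siRNA-B, against 11.50 and 11.45 with control siRNA-1 and -2. In 10 of 10 spots both knockdown arrays lay above both control arrays. These spots are repeated readings of the same RNA pools and not separate experiments. The log2 fold change of single spots ranged from 0.096 to 0.25, with a median of 0.20, and 0 of 10 spots passed the threshold in limma. Over the mean of the spots the log2 fold change was 0.19 ± 0.11 (SE, limma adjusted p = 0.745), with a 95% interval from -0.064 to 0.44, which corresponds to 0.956-fold to 1.36-fold.

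CSF2RA, the chain that recognizes GM-CSF, came closest to the threshold, and its 2 probes pointed the same way. On the downstream probe A_33_P3232688 the log2 intensity was 10.11 with siRNA-A, 10.21 with siRNA-B, 9.75 with control siRNA-1 and 9.82 with control siRNA-2. Knockdown arrays were above control arrays without overlap, with a log2 fold change of 0.38 ± 0.11 (SE, limma adjusted p = 0.440) or 1.30-fold. The unadjusted p in limma was 0.00889, and 2.02% of all probes had a smaller one. On the junction probe A_23_P501985 printed above the log2 intensity was 8.44 with siRNA-A, 8.43 with siRNA-B, 8.20 with control siRNA-1 and 8.25 with control siRNA-2. The groups did not overlap on this probe either, and the log2 fold change was 0.21 ± 0.11 (SE, limma adjusted p = 0.701). The 95% intervals were 0.12 to 0.63 for the downstream probe and -0.038 to 0.46 for the junction probe and overlapped; the difference between both probes was not tested. The call of the downstream probe depended on the normalization: it passed the threshold when arrays were quantile normalized (0.41), with or without a preceding background correction, and with cyclic loess (0.41).

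CSF2RB, the beta chain shared by the GM-CSF and interleukin-3 receptors, gave different values on its 2 probes. On A_33_P3341442 the deposited intensity was 88.0 with siRNA-A, 66.0 with siRNA-B, 60.0 with control siRNA-1 and 60.5 with control siRNA-2, or 6.46, 6.04, 5.91 and 5.92 on the log2 scale. The probe was dim, though well above background on every array. Its background-subtracted signal was 51.1 with siRNA-A, 31.2 with siRNA-B, 27.4 with control siRNA-1 and 27.6 with control siRNA-2. Both knockdown arrays were above both controls, but the siRNA-A array stood apart from the siRNA-B array by 0.42 on the log2 scale, a distance that 6.21% of all probes exceeded. The log2 fold change was 0.34 ± 0.15 (SE, limma adjusted p = 0.616). Omission of siRNA-A gave 0.13 and omission of siRNA-B 0.55. With the background-subtracted signal it was 0.54 without scaling and 0.57 scaled to the 75th percentile, and with background correction and quantile normalization 0.22. The probe A_23_P120899 had log2 intensities of 6.66 with siRNA-A, 6.78 with siRNA-B, 6.62 with control siRNA-1 and 6.69 with control siRNA-2. Here the groups overlapped, and the log2 fold change was 0.066 ± 0.11 (SE, limma adjusted p = 0.927). It was 0.0039 when siRNA-B was left out, 0.127 when siRNA-A was and 0.033 when control siRNA-1 was. The background-subtracted signal gave 0.011 without scaling and 0.042 with it, and background correction with quantile normalization gave 0.024.

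IL3RA, the chain that recognizes interleukin-3 and a surface antigen of leukemic blasts, had different values on the 2 knockdown arrays, which was not tested, since each siRNA has 1 array. Its probe on chromosome X at 1501487 to 1501546 had a log2 intensity of 9.13 with siRNA-A, 9.75 with siRNA-B, 9.56 with control siRNA-1 and 9.75 with control siRNA-2. The siRNA-A array was the lowest of the 4, and the siRNA-B array lay between the controls. The knockdown arrays were 0.62 apart on the log2 scale, which 1.79% of all probes exceeded. The log2 fold change of -0.22 ± 0.19 (SE, limma adjusted p = 0.829) therefore rested on siRNA-A: omitting siRNA-A gave 0.089, omitting siRNA-B gave -0.53 and omitting control siRNA-2 gave -0.12. Among 22818 probes well above background on every array, the named genes with the most similar pattern were PCDHB2, SLC38A2 and TRA2B, with root mean square distances of 0.022, 0.030 and 0.030 between log2 intensities centred on their own mean over the 4 arrays. In all, 257 probes lay within a distance of 0.1, so that many patterns resemble each other over 4 arrays.

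CSF3R, the receptor for granulocyte colony-stimulating factor, had the same mean level in both groups within the spread of the knockdown arrays. The probe, on chromosome 1 at 36931696 to 36931755, had a log2 intensity of 12.65 with siRNA-A, 12.92 with siRNA-B, 12.77 with control siRNA-1 and 12.75 with control siRNA-2. The siRNA-B array was above and the siRNA-A array below both controls. The log2 fold change was 0.028 ± 0.13 (SE, limma adjusted p = 0.982), with a 95% interval from -0.26 to 0.31, or 0.837-fold to 1.24-fold. Leaving out siRNA-B gave -0.11 and leaving out siRNA-A 0.16.

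EPOR, the receptor for erythropoietin, was well above background on every array. On chromosome 19 at 11488607 to 11488666 the log2 intensity was 9.10 with siRNA-A, 8.90 with siRNA-B, 8.70 with control siRNA-1 and 9.13 with control siRNA-2. Both knockdown arrays lay between the controls. The controls were 0.43 apart, a distance that 2.85% of all probes exceeded. The log2 fold change was 0.085 ± 0.16 (SE, limma adjusted p = 0.934), and it was -0.13 when control siRNA-1 was left out and 0.30 when control siRNA-2 was.

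**Figure D2:**
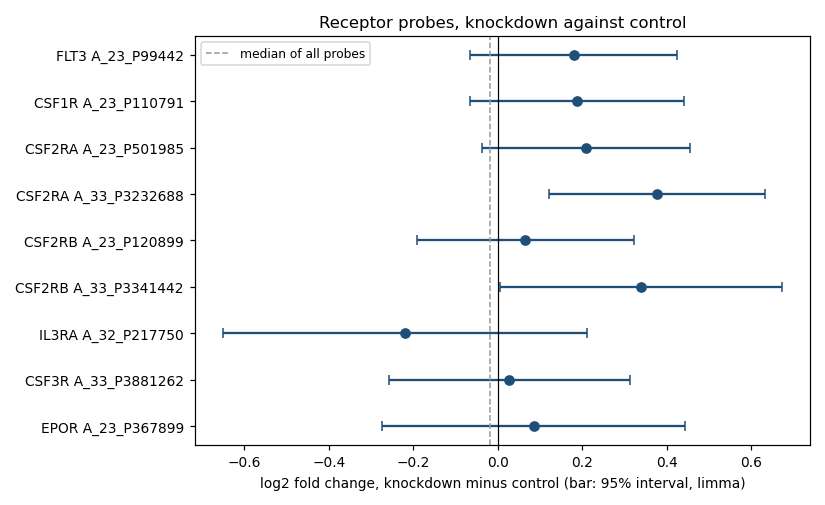
Log2 fold change of each receptor probe, knockdown minus control (horizontal axis; points are estimates of 2 against 2 arrays and bars 95% intervals in limma), with the median of all probes as a dashed line. The intervals of CSF2RA A_33_P3232688 and CSF2RB A_33_P3341442 start above 0, at 0.12 and 0.0045, and the other 7 include 0.

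**Figure D3:**
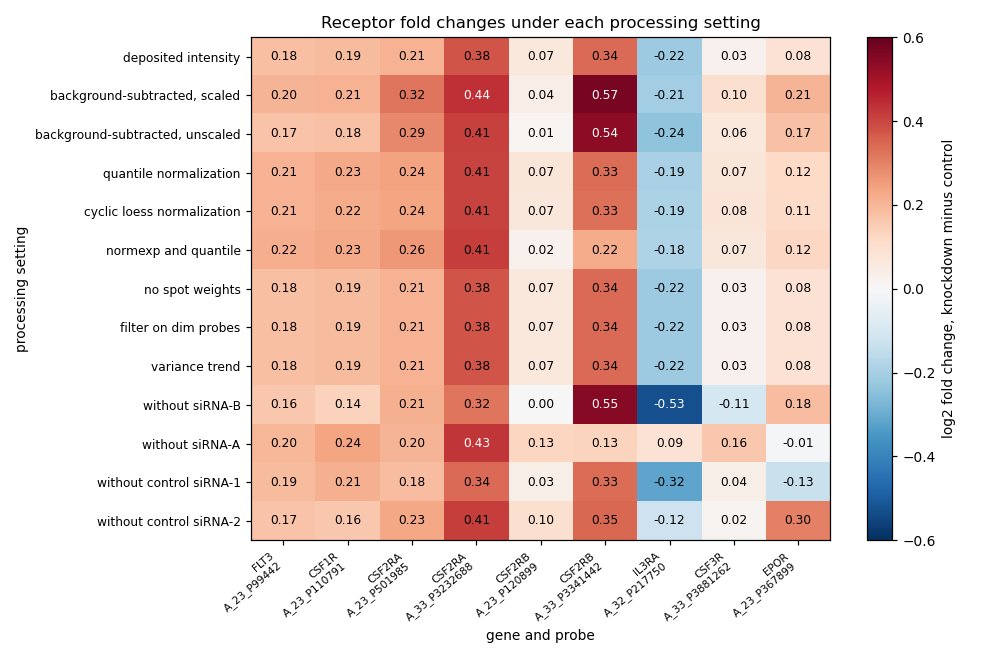
Log2 fold change of each receptor probe (columns) with the deposited intensity and under 12 alternative settings (rows), knockdown minus control, as number and colour. FLT3, CSF1R, CSF2RA and CSF2RB stay above 0 in every row, while IL3RA, CSF3R and EPOR change sign when single arrays are left out.

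Genes that act around these receptors were described by lists, each gene by its brightest probe. Together the lists held 120 genes, of which 104 were tested, and 6 were called, 5 higher and 1 lower. An unadjusted p under 0.05 in limma was reached by 12 of 104, beside 8.2% of all gene names. Among the brightest probes of all gene names 1.35% were called, 0.596% higher and 0.755% lower. The lists were chosen with earlier results of these data known, and the study had reported lower SOCS2 from the same arrays. The counts are therefore given as a description beside these shares. Of 8 ligands 4 were tested, and none was called at an unadjusted p under 0.005 or reached 0.05 in limma. Stem cell factor (KITLG) had a log2 intensity of 9.50 with siRNA-A, 9.37 with siRNA-B, 9.55 with control siRNA-1 and 9.75 with control siRNA-2. Its log2 fold change was -0.21. FLT3LG, the ligand of FLT3 and the ligand with the smallest p, had a log2 fold change of 0.22 ± 0.11 (SE, limma adjusted p = 0.682), with both knockdown arrays above both control arrays. The macrophage colony-stimulating factor gene CSF1 (0.096) and IL34, the other ligand of CSF1R (0.12), were tested as well, and IL34 was well above background on 1 array. CSF2, CSF3, IL3 and EPO, the ligands of the other receptors, had a weight of 0, and no array showed them well above background.

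Among related receptors MERTK, a receptor tyrosine kinase by which macrophages take up dying cells, was called with a higher value after knockdown. Its log2 intensity was 6.73 in both knockdown arrays and 5.55 and 5.83 with control siRNA-1 and -2. The log2 fold change was 1.04 ± 0.13 (SE, limma adjusted p = 0.0336), and it was 1 of 5 related receptor tyrosine kinases tested. Every array gave MERTK an intensity below the median of its analysed spots, though well above background. The size of the change varied with the background handling. With the background-subtracted signal it was 1.85 unscaled and 1.88 scaled, and with background correction and quantile normalization 0.72. The adjusted p of MERTK stayed under 0.05 in 3 of 12 alternative settings. It was 0.173 to 0.554 with the other signals and normalizations and 0.511 or more with any 1 array left out. Of 16 related cytokine receptors 2 were called and 4 had an unadjusted p under 0.05 in limma. PRLR, the prolactin receptor, rose by 0.64 on the log2 scale (SE 0.12, limma adjusted p = 0.183) and its other probes gave 0.62 and 0.50. IL10RA, which binds interleukin-10, rose by 0.53 (SE 0.12, limma adjusted p = 0.252). The list medians were 0.050 and 0.053, beside -0.019 over all gene names. That of the receptor tyrosine kinases was 0.021 when control siRNA-1 was left out, and that of the cytokine receptors was -0.036 when siRNA-B was left out, 0.023 when siRNA-A was, 0.019 when control siRNA-1 was and 0.104 after quantile normalization.

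Downstream of the receptors 0 of 10 JAK and STAT genes and 0 of 30 adaptor and effector genes were called, with 1 gene each at an unadjusted p under 0.05 in limma. JAK2, the kinase that CSF2RB and EPOR depend on, had a log2 fold change of 0.11, and STAT5A and STAT5B had values of 0.12 and 0.019. The smallest p belonged to TYK2 (0.31, limma adjusted p = 0.520) and PIK3CD (0.26, adjusted p = 0.609), the latter with 0.024 on its other probe. Of 10 JAK and STAT genes 9 had a fold change above 0, beside 44.4% of all gene names, with a median of 0.10. This median rested on siRNA-B: it was -0.0092 when siRNA-B was left out and 0.197 when siRNA-A was. Of 24 negative regulators 3 were called and 4 had an unadjusted p under 0.05 in limma. SOCS2, which is induced by STAT5 and dampens cytokine signals, fell by 1.07 on the log2 scale (SE 0.18, limma adjusted p = 0.129). Its log2 intensity was 11.90 with siRNA-A, 12.50 with siRNA-B, 13.30 with control siRNA-1 and 13.23 with control siRNA-2. SOCS3, an inhibitor of JAK that acts on CSF3R among others, rose by 0.53 (SE 0.12, limma adjusted p = 0.286) and SLA, an adaptor that promotes the degradation of receptors, by 0.47 (SE 0.11, limma adjusted p = 0.266). CISH (-0.038) and SOCS1 (-0.026), the related feedback inhibitors, had overlapping arrays. Of 15 genes that respond to STAT5 or growth factors 0 were called and 1 had an unadjusted p under 0.05 in limma, the repressor BCL6 (0.46, adjusted p = 0.501).

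The calls in these lists depended in part on the processing and on the number of arrays. Some of the alternatives left out 1 array, which lowers the number of arrays at an unchanged threshold. MERTK was called in 10 of 12 alternative settings, with a log2 fold change of 0.72 to 1.88, SOCS2 in 8 (-1.37 to -0.77), SOCS3 in 7 (0.40 to 0.72), PRLR in 7 (0.51 to 0.77), IL10RA in 6 (0.43 to 0.62) and SLA in 6 (0.44 to 0.51). In these settings the directions of the 6 genes were kept. The marker genes CD14 and ELANE were called in 11 and 4 of 12.

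**Figure D4:**
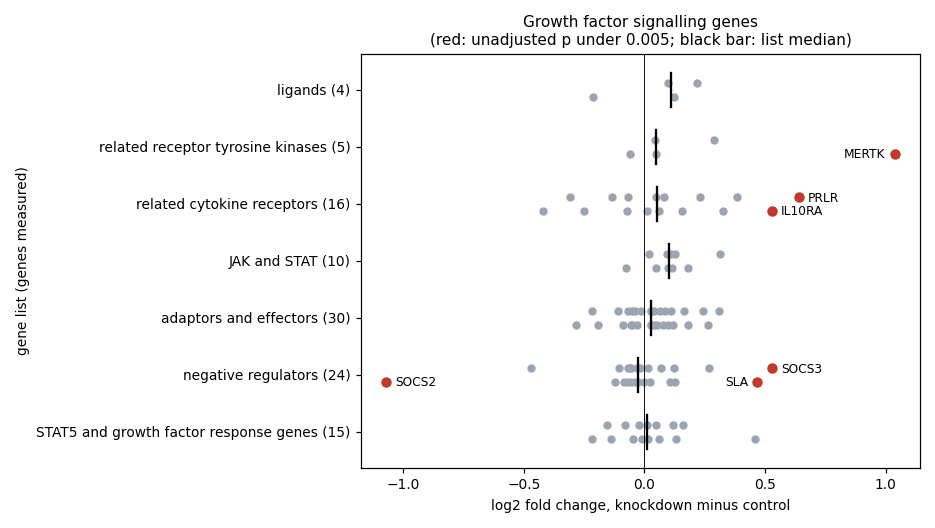
Log2 fold change, knockdown minus control (horizontal axis), of the genes of 7 lists of growth factor signalling (vertical axis, number of genes tested in brackets); points are genes by their brightest probe, red points have an unadjusted p under 0.005 in limma and black bars are list medians. MERTK at 1.04 and SOCS2 at -1.07 lie farthest from 0.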

How the data were processed

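The authors deposited, per spot, an intensity from Agilent Feature Extraction 10.5.1.1, neither background corrected nor normalized, and a quality weight, a score whose origin is not stated. The intensity equalled the scanner's median signal exactly, with no tolerance, in 100% of spots. Control spots and spots of weight 0 were left out, which left 33323 of 43118 spots. Log2 values of identical spots were averaged, and limma 3.58.1 (R 4.3.3) was run over all probes with these weights and no covariates. Probes were called at an unadjusted p under 0.005, as in the study, whose further test over identical spots was not applied because these were averaged. The p were adjusted by Benjamini-Hochberg across the 26219 probes and are two-sided throughout. Arrays are pools, and the arrays of a group received different siRNAs. The p-values, standard errors and intervals rest on the spread between such pools. The spread between the 5 experiments within a pool does not enter them. The number of arrays limits the precision. An array counted as well above background where over 0.5 of the spots of a probe were. Named are all receptor probes, and of each list the called genes or else the gene with the smallest p; KITLG, CSF1, IL34, MLLT3, CD36, CTSG, MPO, AZU1, JAK2, STAT5A, STAT5B, CISH, SOCS1 and the ligands of weight 0 were added after their values were seen. Receptors and lists were chosen with earlier results of these data known. The same script was run on simulated data with independent noise and known changes, which checks the code and not the calls. Alternatives were the scanner's background-subtracted signal scaled to its 75th percentile or unscaled, quantile and cyclic loess normalization, normexp (offset 50) before quantile normalization, unit weights, a filter on dim probes, a variance trend, and omission of each array, where the lone array was assumed to vary like the others. Of 61 scanner columns 49 were not used. Marker genes not analysed here were LYZ, FCGR1A, HBA1, GYPB, GP6, NCAM1, TPSAB1 and TPSB2.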

Additional observations from a re-analysis of the deposited data

Results flagged for a closer look

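In the deposited intensity of CSF3R, the arrays of the siRNAs lay on opposite sides of both control arrays, which singled it out. Against the mean of the controls the siRNA-B array was 0.16 higher and the siRNA-A array 0.11 lower on the log2 scale (-0.11), a difference of 0.27 between the siRNAs. Of all probes 20.1% had a larger one. This difference was not tested, since each siRNA has 1 array. Of 6 signals or normalizations 2, the deposited intensity and the unscaled background-subtracted signal, placed the siRNAs on opposite sides. The siRNA-B array was above both controls in all 6, by 0.15 to 0.22 over their mean, while the siRNA-A array ranged from -0.11 to 0.0044.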

How the results depend on the processing

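The number of receptor probes called was 0 and became 1, the downstream CSF2RA probe, after quantile normalization, cyclic loess normalization and normexp with quantile normalization; it was 0 without any 1 array and at an adjusted p under 0.05. Over 12 alternatives for each of 9 receptor probes, 104 of 108 values kept their direction. The exceptions were EPOR, which ranged from -0.13 (control siRNA-1 omitted) over -0.014 (siRNA-A omitted) to 0.30, IL3RA (-0.53 to 0.089, the latter without siRNA-A) and CSF3R (-0.11, without siRNA-B, to 0.16). Of all probes 345 were called, 226 with the scaled background-subtracted signal, up to 411 with the filter on dim probes, and 78 (without control siRNA-2) to 242 (without siRNA-B) with 1 array left out, including 88 without control siRNA-1. An adjusted p under 0.05 was reached by 31 probes, and by 0 in 9 of 12 alternatives: both forms of the background-subtracted signal, the 3 normalizations and each omission of 1 array, where 795 to 2527 probes had an unadjusted p under 0.05 in limma. Of 144 medians of gene lists under these alternatives 31 moved by more than the spread between arrays. Of the pathway genes 6 were called, falling to 2 for either form of the background-subtracted signal and to 1 to 2 with 1 array left out: 1 without siRNA-B and 2 without siRNA-A, control siRNA-1 or control siRNA-2. The cause was not tested. Among all called probes 44.3% were higher, and 26.9% without control siRNA-2, 32.3% without siRNA-A and 56.2% without siRNA-B. No paired analysis was possible because each array pools 5 experiments and the numbers in the labels name siRNAs, not experiments.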
